A study of Mus musculus with 8 samples.

Results

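Col4a3 encodes the alpha3 chain of type IV collagen, and its transcript was 1 gene of the 1931 in the table analysed, found by its symbol. Kidney RNA was sequenced in 8 samples from mice of the MRL-lpr strain aged 12 weeks, in which a defect of Fas, a receptor that triggers cell death, leads to lupus-like disease. In 4 samples the treatment is labelled propionate, a short-chain fatty acid of microbial origin given in the drinking water (200 mM, 6 weeks), and in the other 4 it is labelled control. Both groups share the strain, and no other strain was analysed here, so every value below comes from lupus-prone mice. The labels do not state that each sample is a separate animal, although samples are called mice here.

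The alpha3, alpha4 and alpha5 chains of type IV collagen assemble into a triple helix and then a network that forms the mature glomerular basement membrane, the filter between the capillary endothelium and the podocytes of the glomerulus. In that membrane the podocyte is the cell known to make the network, and some tubular basement membranes hold it too. In people, variants of the genes for these chains cause Alport syndrome, a progressive loss of the filter. The end domain of the alpha3 chain is the target of autoantibodies in Goodpasture disease.

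The table lists Col4a3 (ENSMUSG00000079465) on the forward strand of chromosome 1 from 82564642 to 82699780, with a gene length of 9967 bases for the FPKM. The submitters' processing notes name mm10, but 44 of 1913 matched genes have the start and end of GENCODE M21 on that build (GRCm38) and Col4a3 is not one of them, so the build of these positions is uncertain. In GENCODE M21 its longest coding transcript has 52 exons, 8554 bases and 1669 coding codons. A collagen helix needs glycine as the first of each 3 residues. Of the 1669 codons, 460 begin with GG, the mark of a glycine codon, and 77.1% lie in 25 runs where such a codon opens at least 3 successive triplets of codons. The longest run holds 39 such triplets and starts at codon 43. The last run ends 233 codons before the stop, and the noncollagenous end domain is known to lie at that end. The first 30 codons of the longest run are shown because they are the repeat that makes the transcript a collagen, with the 10 glycine codons in capitals.
Col4a3 glycine repeat: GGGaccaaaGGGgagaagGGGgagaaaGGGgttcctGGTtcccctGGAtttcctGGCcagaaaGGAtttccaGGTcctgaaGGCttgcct

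Col4a3 and Col4a4, the gene of the alpha4 chain, lie head to head and are read away from each other, and Col4a4 is not among the genes of the table. In RefSeq on GRCm38.p6 the Col4a4 start is at 82586849 and the Col4a3 start at 82586921 of chromosome 1. The stretch between the starts is printed because both genes share it as a promoter. It is chr1:82586820-82586950 on the forward strand, with the 71 bases between the starts in capitals and 30 bases on each side.
Col4a3 and Col4a4 shared promoter: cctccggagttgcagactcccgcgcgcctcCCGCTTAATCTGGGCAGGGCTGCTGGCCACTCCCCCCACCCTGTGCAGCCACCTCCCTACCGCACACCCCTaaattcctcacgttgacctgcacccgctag
The Col4a4 promoter was taken as a fixed window of 250 bases before and 50 after its RefSeq start (82586800 to 82587099). From 82586921 on, that window lies within Col4a3. These 300 bases contain the stretch above and have a GC content of 63.3%, against a median of 52.7% over 32851 mouse promoters of that length. On both strands of the 300 bases, the motif GGGCGG (the GC box), the motif TATAAA (the TATA box) and the motif CCAAT had no match. Of all promoters of that length, 35.7% hold GGGCGG, 13.6% hold TATAAA and 37.4% hold CCAAT. These are letters in a window and say nothing of which factors bind there.

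The kidneys of propionate mice had less Col4a3 transcript than those of control mice, by 29.6% in the group means. Scaled counts (reads divided by 1 size factor per library) were 3674, 4296, 4334 and 4076 in control replicates 1 to 4. They were 3451, 3035, 2770 and 2271 in propionate replicates 1 to 4. Every propionate mouse lay below every control mouse, with a gap of 223.3 scaled counts between the lowest control and the highest propionate mouse. The groups of 920 genes in the table (47.6%) did not overlap either, 454 of them lower with propionate (23.5%). The table was selected on these libraries, so the lack of overlap is a description. Group means were 4095 ± 303 and 2881 ± 494 scaled counts (SD, n = 4). The edgeR fit gave a log2 fold change of -0.51 ± 0.11 (SE) for propionate over control.

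Per length, Col4a3 stood at 15.0, 17.8, 17.6 and 16.8 FPKM (fragments scaled by gene length and library total) in the control mice. In the propionate mice it stood at 14.0, 12.6, 11.3 and 9.28 FPKM. The means of 16.8 ± 1.26 and 11.8 ± 2.03 FPKM (SD, n = 4) differ by 29.7%. The FPKM groups were 0.993 FPKM apart.

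**Figure D1:**
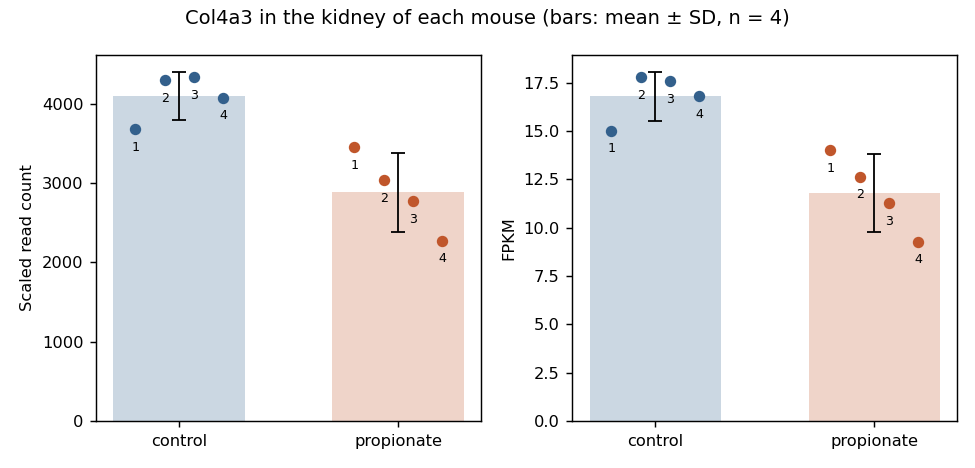
Scaled read count (left panel) and FPKM (right panel) of Col4a3 in each of 8 mice, with a point per mouse marked by its replicate number (which gives no order of mice) and bars for the group mean with its SD (n = 4). All 4 propionate mice, at 2271 to 3451 scaled counts, sit below all 4 control mice, at 3674 to 4334.

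Col4a3 was taken up for this difference and the table itself holds only genes with an unadjusted p of at most 0.05, so no test of the difference is given here. The authors' deposited table, by which it was chosen, gives a log2 fold change of -0.51, a p of 2.18e-05 and 0.00633 after adjustment. That p ranks 55 among the 1931 genes in the authors' deposited table. Of these genes, 157 (8.13%) pass an adjusted p of 0.05 by the authors' deposited table, 103 of them lower (5.33%), and they are 0.977% of the 16064 genes that its adjustment implies. An edgeR adjustment over the selected genes alone calls 1617 of 1793 tested (90.2%) and is therefore not used for calls. In whole kidney, fewer cells with Col4a3 transcript, podocytes or others, and less of the transcript per cell cannot be told apart.

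The mice of a group differed more in Col4a3 under propionate than under control. The coefficient of variation was 7.40% in the control group and 17.2% in the propionate group (n = 4 each), and this difference in spread was not tested. The highest propionate mouse had 1.52 times the level of the lowest, where the same ratio was 1.18 in the control group. Each library held 2291 to 4611 reads of the gene, which gives a counting error of 1.47% to 2.09%. On the log2 scale, deviations from the group mean were -0.15, 0.07, 0.08 and -0.00 in control replicates 1 to 4. They were 0.28, 0.09, -0.04 and -0.33 in propionate replicates 1 to 4, so propionate replicate 4 was the lowest mouse of all. Without that mouse the log2 fold change was -0.41 ± 0.09 (SE), and without propionate replicate 1, the highest of its group, it was -0.61 ± 0.10.

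Libraries held 20005328 to 26711127 assigned reads, of which the genes of the table took 13.4% to 15.1%. Proximal tubule genes that mark kidney were high, with Slc34a1, the phosphate carrier, at 613 ± 52.4 FPKM and Lrp2, megalin, at 135 ± 5.40 FPKM in the control group (SD, n = 4). Of 18 proximal tubule symbols 10 were listed, and by the authors' deposited adjusted p 2 rose (Slc6a19 and Spp2) and 2 fell (Pck1 and Slc13a3). Of the loop and distal tubule 4 of 13 were listed and Cdh16 rose by the authors' deposited adjusted p, and of the collecting duct 4 of 13 were listed and 0 passed, with 3 of 4 higher in each list. Of all 1793 tested genes 955 were higher, and 8.13% of all listed genes pass in either direction. The part of these tubule differences in the Col4a3 difference was not tested. Umod, Slc12a1 and Aqp2 were not among the genes in the table. Neither were the podocyte markers Nphs1, Podxl, Synpo and Wt1, so the share of podocytes in each kidney could not be followed. No marker of the glomerular endothelium, of lymphocytes or of adhering fat, adrenal gland or blood was listed either, out of 16, 15 and 10 symbols.

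Most genes of the collagen, basement membrane and podocyte lists were not in the table, since only genes selected for a difference are there. Most other genes are absent too, as the table lists 1931 where its adjustment implies 16064. Of the 6 chains of type IV collagen, Col4a3 alone was listed, so its partners Col4a4 and Col4a5 and the ubiquitous Col4a1 and Col4a2 are not analysed here. Across 4 further lists (basement membrane components, collagen folding and crosslinking, membrane receptors and podocyte genes), 10 of 111 symbols were listed. Of these, 7 were lower and 3 higher with propionate, where 838 of all 1793 tested genes were lower. The 10 had a median log2 fold change of -0.23 beside 0.16 for all tested genes. By the authors' deposited adjusted p, 1 of the 10 fell (Itga6) and 0 rose, where 8.13% of all listed genes pass in either direction. Once a trend of gene length and GC content was removed from each library the median of the 10 was -0.05, and with length alone -0.06.

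Lama5, of the listed basement membrane components, is the laminin alpha5 chain that binds podocytes to the glomerular membrane. It was at 1875, 2073, 2203 and 2396 scaled counts in controls. In propionate mice it was at 2086, 1990, 1407 and 1606 scaled counts, so that the groups overlapped. Its log2 fold change was -0.27 ± 0.12 (SE), and the authors' deposited table gave it an adjusted p of 0.405, so it did not pass. With the length trend removed the log2 fold change of Lama5 was -0.04, and with length and GC removed -0.27. Col18a1, whose collagen XVIII carries heparan sulfate and releases endostatin, had a log2 fold change of 0.18 ± 0.08 (SE), or 0.32 with the length trend removed. Frem2, a matrix protein of the Fraser complex in kidney development, had one of -0.37 ± 0.17 (SE), and -0.11 with the length trend removed. Both had overlapping groups, and the authors' deposited table gave an adjusted p of 0.403 to Col18a1 and 0.415 to Frem2.

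Of the enzymes and carriers that prepare collagen, 3 of 29 symbols were listed, and the authors' deposited table has 0 of them past its adjusted p. Plod2, a lysyl hydroxylase that sets collagen crosslinks, came closest. It averaged 611 ± 60.5 scaled counts in controls and 454 ± 58.0 in propionate mice (SD, n = 4), and the groups did not overlap. Its log2 fold change was -0.43 ± 0.11 (SE), and the authors' deposited table gave it an adjusted p of 0.0504. Corrected for length and GC, Plod2 had -0.20. P3h2, a prolyl 3-hydroxylase that modifies type IV collagen, had a log2 fold change of 0.18 ± 0.07 (SE), the other way from Col4a3. Sec23b, of the coat that carries cargo out of the endoplasmic reticulum, had one of -0.19 ± 0.06 (SE), and 0.08 with the length and GC trend removed. For P3h2 the authors' deposited table gave an adjusted p of 0.26, and for Sec23b 0.172.

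Of 15 membrane receptors 2 were listed, both integrin alpha chains. Itga6, the alpha6 chain of laminin-binding integrins, had 3868, 3562, 3465 and 3269 scaled counts in control replicates 1 to 4. It had 2905, 2579, 3143 and 2648 in propionate replicates 1 to 4, all below the lowest control. Itga6 fell, with an edgeR log2 fold change of -0.33 ± 0.08 (SE), and the authors' deposited table gave it an adjusted p of 0.0225. Corrected for length and GC, its log2 fold change was -0.17 (edgeR adjusted p = 0.106, over the listed genes) and with length alone -0.13 (edgeR adjusted p = 0.179). Itgav, the alphaV chain of integrins that bind RGD motifs in matrix proteins, had a log2 fold change of -0.21 ± 0.07 (SE). The authors' deposited table gave Itgav an adjusted p of 0.181, and its log2 fold change turned to 0.10 with the length and GC trend removed and 0.01 with length alone. Of 39 podocyte symbols 2 were listed. Vegfa, the growth factor that podocytes send to the glomerular endothelium, had a log2 fold change of -0.24 ± 0.06 (SE). With 0.0634 as its adjusted p in the authors' deposited table, Vegfa did not pass. Arhgap24, a Rac-directed GTPase-activating protein of podocytes, had one of 0.12 ± 0.06 (SE) with overlapping groups, and the authors' deposited table gave it an adjusted p of 0.446. Corrected for length and GC, the value for Arhgap24 was 0.43 (edgeR adjusted p = 0.00453, over the listed genes) and with length alone 0.31 (edgeR adjusted p = 0.00752). The edgeR adjusted p-values for Itga6 and Arhgap24 run over genes selected on this same contrast. They are descriptions and make no call for either gene. Tubule cells express Vegfa too.

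**Figure D2:**
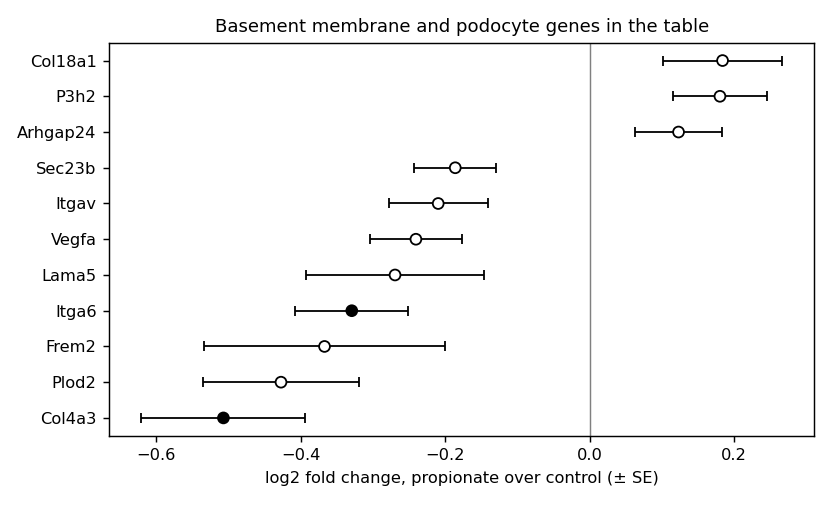
The x axis gives the edgeR log2 fold change of propionate over control with its SE (4 mice per group) for Col4a3 and the 10 listed genes of the basement membrane, collagen processing, receptor and podocyte lists. Filled points have an adjusted p under 0.05 in the authors' deposited table, which holds for Col4a3 (-0.51) and Itga6 (-0.33).

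Per length, control kidneys held about as much transcript of Col4a3 (16.8 ± 1.26 FPKM, SD, n = 4) as of Itga6 (15.8 ± 1.09) and Itgav (15.6 ± 0.387), and these 3 ranges overlapped. Lama5 stood lower at 7.68 ± 0.803 FPKM, and Vegfa at 25.5 ± 1.23, Col18a1 at 29.4 ± 2.91 and P3h2 at 34.0 ± 2.85 FPKM stood higher. Under propionate the level of Col4a3 was 11.8 ± 2.03 FPKM, of Itga6 12.6 ± 1.06 and of Itgav 13.5 ± 1.22, again with overlapping ranges.

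Nearby on chromosome 1, 2 other genes of the table lie within 1 Mb of Col4a3. C430014B12Rik is a long noncoding RNA on the reverse strand (82669649 to 82702890) and shares 30132 bases with the span of Col4a3. It had 10, 11, 12 and 7 reads in the control libraries and 5, 0, 5 and 1 in the propionate libraries. Its groups did not overlap, the authors' deposited table lists it with an adjusted p of 1, and its counts were too low for the edgeR filter. The sources used here do not give whether the libraries keep strand, so reads in the shared bases cannot be assigned to either gene with certainty, although 12 reads at most are few beside the 2291 or more of Col4a3. Slc19a3, a thiamine transporter on the reverse strand whose nearer end lies 290464 bases past the Col4a3 end, averaged 321 ± 34.2 and 265 ± 29.7 scaled counts in control and propionate mice (SD, n = 4). Its groups overlapped, and the authors' deposited table gave it an adjusted p of 0.392.

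The table was selected on a p for the group difference, which also depends on the spread between mice of a group. Likeness to Col4a3 was not a criterion, so the differences between mice of the same group were read separately. That reading is not independent of the selection. The likeness of a gene to Col4a3 was the Pearson correlation of log2(scaled count + 1) over 8 mice after each group mean was subtracted, and it is given as a description because the genes named were picked for it. Protein-coding genes that averaged 50 scaled counts or more were used, 1510 in all. The likeness was 0.8 or more in 54 of them (3.58%) and -0.8 or less in 97 (6.42%), with a median of -0.23.

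The 8 most alike genes were Sgms1, Dgkh, Osbpl8, Zfp292, Zmiz1, Tmem87b, Fnbp4 and Setd5. Sgms1, a sphingomyelin synthase of the Golgi, had a likeness of 0.985 (Spearman 0.929) and kept 0.958 without the 2 mice farthest from the middle in Col4a3, propionate replicates 1 and 4. Sgms1 lost this likeness with a length and GC trend removed from each library (-0.489) and with length alone (0.116). Its range was narrow, from 1795 to 1855 scaled counts over the control mice (propionate replicates 1 to 4 at 1726, 1646, 1634 and 1545). Dgkh, a diacylglycerol kinase, had a likeness of 0.957 (Spearman 0.976) and 0.779 without those mice. It went through 205, 186, 153 and 116 scaled counts in propionate replicates 1 to 4. These mice stand in the same order for Sgms1 and Dgkh as for Col4a3.

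Osbpl8, a lipid exchanger between the endoplasmic reticulum and plasma membrane, had a likeness of 0.934 (Spearman 0.929) and 0.756 without propionate replicates 1 and 4. Zmiz1, a transcriptional coregulator, had 0.929 (Spearman 0.976) and 0.74 without them. For Zfp292, a zinc finger protein, the likeness was 0.93. It was 0.929 for Tmem87b, a Golgi membrane protein, 0.922 for the formin-binding protein Fnbp4 and 0.912 for Setd5, a chromatin regulator with a SET domain. The median of the 8 was 0.929 over all mice and 0.761 without the 2 mice. With length and GC removed the likeness was -0.0764 for Tmem87b and 0.29 for Setd5, and with length alone 0.567 and -0.145. For Dgkh, Osbpl8, Zfp292, Zmiz1 and Fnbp4 it lay between 0.86 (Osbpl8) and 0.954 (Dgkh) with length and GC removed. None of the 8 stands in the basement membrane or podocyte lists.

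The 4 least alike genes were Rps7, Glrx3, Abhd8 and Mllt1. Rps7, a protein of the small ribosomal subunit, had a likeness of -0.969 (Spearman -0.952) and stood at 3643, 3752, 3827 and 4064 scaled counts in propionate replicates 1 to 4. Those values run opposite to the Col4a3 values of the same mice. The likeness of Rps7 was -0.0943 with a length trend removed from each library and -0.404 with length and GC removed. Glrx3, a glutaredoxin of iron-sulfur cluster handling, had a likeness of -0.966, Abhd8, of the hydrolase-fold family, -0.949 and Mllt1, a subunit of the super elongation complex, -0.947. Of 48 listed ribosomal protein genes, a family taken up after its values were seen, 47 had a likeness below 0 and 6 one of -0.8 or less, where 61.0% of all 1510 genes were below 0 and 6.42% at -0.8 or less. Their counts are uncertain, because near-identical pseudogenes of this family can share reads with them.

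**Figure D3:**
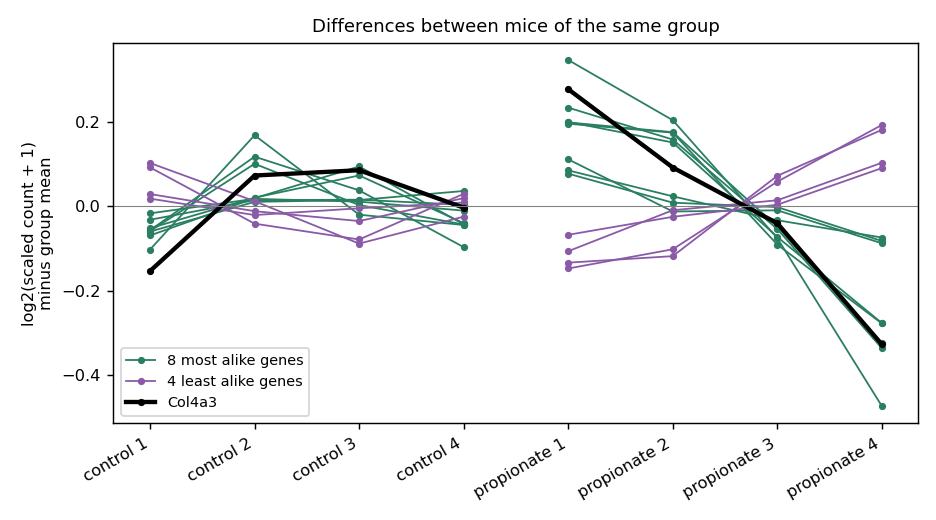
The y axis gives log2(scaled count + 1) minus the group mean for Col4a3 (black), the 8 most alike genes (green) and the 4 least alike genes (purple) in each of 8 mice on the x axis, and lines join the values of 1 gene and imply no order of mice. The widest spread is between propionate replicate 1 (Col4a3 at 0.28) and propionate replicate 4 (Col4a3 at -0.33), with the purple genes running the other way.

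Of the listed basement membrane and podocyte genes, Itgav had the highest likeness with no trend removed (0.839, and 0.526 without propionate replicates 1 and 4). Vegfa had 0.686, Lama5 0.668 and Frem2 0.664. The likeness was 0.12 for Plod2, 0.02 for Itga6, -0.02 for Arhgap24, -0.28 for P3h2, -0.38 for Sec23b and -0.41 for Col18a1. Several of these values hang on propionate replicate 4. Without it the likeness was 0.786 for Plod2, -0.445 for Itga6, 0.165 for Col18a1, -0.281 for Arhgap24, -0.0897 for P3h2 and 0.382 for Vegfa, while it was 0.768 for Lama5 and 0.76 for Frem2. With propionate replicates 1 and 4 both left out it was 0.702 for Plod2, -0.709 for Itga6, -0.637 for Sec23b, 0.104 for Col18a1 and 0.825 for Vegfa. With the length and GC trend removed from each library Itgav had 0.156, below Vegfa (0.75), Lama5 (0.675) and Frem2 (0.618). The likeness was then -0.813 for Sec23b, -0.733 for Arhgap24, -0.261 for Col18a1, -0.187 for Itga6, -0.124 for Plod2 and 0.123 for P3h2. With length alone it was 0.595 for Itgav and 0.711 for Vegfa.

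A slope on Col4a3 with the group as a term was then fitted for all 1792 other tested genes. By edgeR 0 genes passed an adjusted p of 0.05 (0%), and the smallest adjusted p was 0.22, while 284 genes (15.8%) had an unadjusted p under 0.05. DESeq2, the other tool run, called 15 genes, which are 0.837% of the 1792 fitted. Its default independent filtering left part of these genes out of its adjustment. The DESeq2 and edgeR adjusted p-values thus run over unlike sets of genes. With the replicate number as a block edgeR called 1, Irs2, an insulin receptor substrate. Among the most alike genes, the slopes with the smallest unadjusted p were 0.95 ± 0.18 (SE) for Osbpl8 and 0.78 ± 0.16 (SE) for Zmiz1 (edgeR adjusted p = 0.22 for each), in log2 units per log2 unit of Col4a3. Lama5 had a slope of 0.73 ± 0.29 (SE, edgeR adjusted p = 0.312) and Itgav of 0.40 ± 0.15 (SE, edgeR adjusted p = 0.312). Without propionate replicate 4 the count at an unadjusted p under 0.05 was 89, and without control replicate 1 it was 465.

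Gene length moved with these patterns. At 9967 bases Col4a3 is longer than 88.5% of the 1510 genes. The 54 genes with a likeness of 0.8 or more had a median length of 8382 bases, and 29 of them exceeded 8000 bases. The 97 genes at -0.8 or less had a median length of 3081 bases, and 5 of them exceeded 8000 bases. Of all 1510 genes, whose median length was 4269 bases, 19.0% did. Across genes, which are not independent, likeness correlated with log length at 0.50 and with the GC content of the longest transcript at -0.49.

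**Figure D4:**
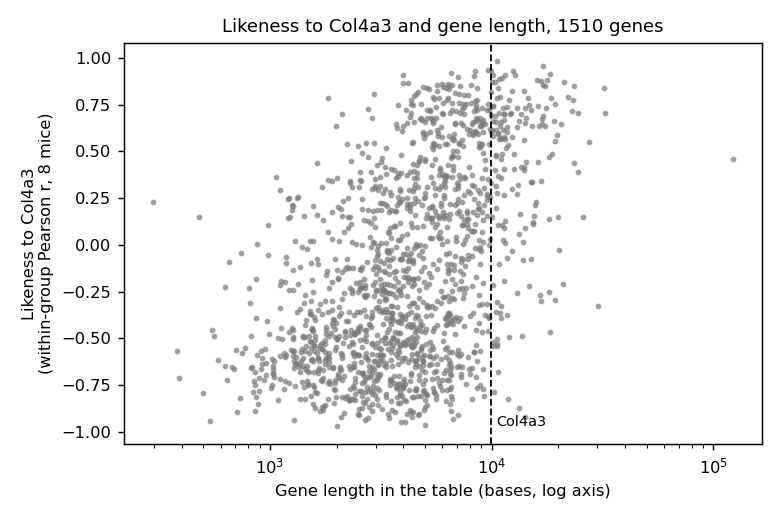
Each point is 1 of 1510 protein-coding genes, with its length in bases on a log x axis and its likeness to Col4a3 (Pearson r within groups over 8 mice) on the y axis. Short genes lie mostly below 0 and long genes mostly above, and the dashed line marks the 9967 bases of Col4a3.

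The balance of long and short transcripts in a library was measured as the median log2 level of 287 genes over 8000 bases minus that of 264 genes under 2000 bases, each gene relative to its own mean over the 8 mice. It was 0.27, 0.21, 0.25 and 0.17 in control replicates 1 to 4. It was -0.02, -0.09, -0.25 and -0.51 in propionate replicates 1 to 4. The propionate mice with more Col4a3 thus had more of the long transcripts, while control replicate 1, the lowest control in Col4a3, had the highest balance of its group. Within groups the balance correlated with Col4a3 at r = 0.857 (exact permutation within groups, two-sided, p = 0.0573) and rho = 0.738 (exact permutation, p = 0.158) over 8 mice, the only such relation computed, which did not pass. With propionate replicates 1 and 4 left out, the 2 mice farthest from the middle in both measures, the r was 0.18, so the relation, taken up after the data were seen, rests on those mice.

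Genes lower with propionate in the table were also longer, with a median of 6497 bases for 646 genes against 3086 for the 864 higher ones. Since these genes were selected for their difference, a treatment difference and a length-dependent difference between libraries cannot be told apart in them. Once a spline trend of gene length and GC content was removed from each library, the log2 fold change of Col4a3 became -0.39 ± 0.10 (SE). The lowest control then lay 0.0025 log2 units above the highest propionate mouse. With a trend of length alone, an alternative added after the data were seen, it had one of -0.30 ± 0.09 (SE), and the groups overlapped by 0.05 log2 units. Col4a3 was lower with propionate under both, and by less than the -0.51 found without a trend.

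**Figure D5:**
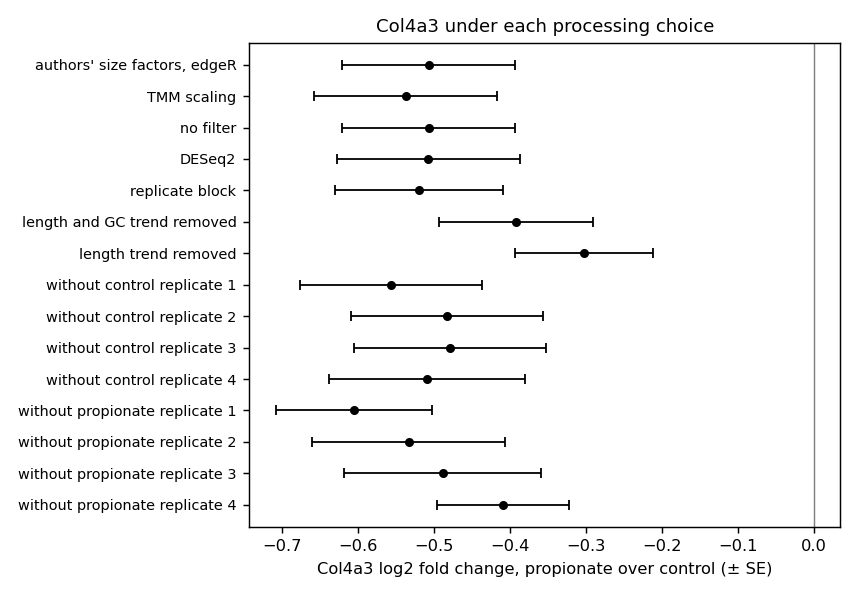
The x axis gives the log2 fold change of Col4a3, propionate over control, with its SE, under each processing choice named on the y axis. All values lie below 0, from -0.61 without propionate replicate 1 to -0.30 with the length trend removed.

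Other lists were read by their counts, and the members named here were picked after their values were seen. Of 22 interstitial and fibrillar matrix symbols, the collagens of scarring among them, 0 were listed. Of 20 matrix turnover symbols 2 were listed, Mmp12 (log2 fold change -1.58 ± 0.49, SE) and Adamts1 (-0.40 ± 0.16), both proteases with overlapping groups, and 0 passed by the authors' deposited adjusted p. Of 26 symbols of TGF-beta and bone morphogenetic protein signalling 5 were listed, of which 2 rose and 0 fell by the authors' deposited adjusted p, where 54 of all 1931 genes rose (2.8%). Those that rose were Bmp6 (log2 fold change 0.35 ± 0.08, SE, 0.0109 as adjusted p in the authors' deposited table) and Grem1, an antagonist of these proteins (1.87 ± 0.43, 0.00711 in the authors' deposited table). Macrophage and dendritic cell symbols were listed for 4 of 18, all lower and with overlapping groups, and 0 passed by the authors' deposited adjusted p. Of all 1793 tested genes 838 were lower, and 47.6% of all listed genes had groups that did not overlap. The likeness of the 4 macrophage and dendritic cell genes to Col4a3 lay between 0.22 for Cd68 and 0.43 for Mrc1 over all mice. Without propionate replicates 1 and 4 it was below 0 for all 4, at -0.594 for Cd68, -0.493 for Itgam, -0.669 for Cx3cr1 and -0.426 for Mrc1, and their part in the Col4a3 difference was not tested.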

How the data were processed

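Whole-number read counts per gene, deposited by the authors for 8 kidney libraries, were analysed beside the authors' scaled counts (a signal made by dividing each count by 1 size factor per library), FPKM and comparison (log2 fold change, p-value and adjusted p-value), per the file headers. The submitters' processing notes name DESeq2 and mm10. No aligner, counter or strand setting is given in the sources used here. The table holds 1931 genes selected for an unadjusted difference, and its adjusted p-values follow if 16064 genes entered the adjustment. Of the gene identifiers, 1913 were in GENCODE M21 (GRCm38), 44 of them with the same start and end, so the table's own coordinates are printed. Columns were assigned to mice by the sample identifiers in the labels. Library totals were recovered from count, FPKM and length. No 2 libraries of a group agreed within sampling noise. The labels do not state separate animals, so p-values measure the spread between these samples, which may be technical.

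The quasi-likelihood test of edgeR 4.0.16 (R 4.3.3) was fitted on all genes past its default filter, with the authors' size factors (scaled count against count), because the table holds selected genes only. TMM factors were an alternative. In edgeR, Benjamini-Hochberg adjustment at 0.05 ran over the genes tested. In DESeq2 it ran over the genes left by the default independent filtering of that tool. DESeq2 1.42.0, no filter, the replicate number as a block, trends of length and GC (natural splines with 4 degrees of freedom, fitted per library on genes with a mean of at least 50) and each library left out were the alternatives. Both edgeR fits were run on simulated data with known changes. Likeness was computed with numpy 2.4.6. The rule for the named genes takes Col4a3, every listed member of 5 lists (type IV collagen chains and the 4 above), the 8 highest and 4 lowest likenesses among protein-coding genes that are not predicted, and genes within 1 Mb. It adds genes with the smallest p of the slope only if any passes, and none did. Col4a3 and the 18 gene lists were chosen with earlier results of these data known. Promoters are windows of 250 bases before and 50 after RefSeq starts on GRCm38.p6.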

Additional observations from a re-analysis of the deposited data

How the results depend on the processing

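Col4a3 was lower with propionate under all 14 alternatives, with a log2 fold change from -0.61 to -0.41 when 1 library was left out, and moved by more than the spread between mice only with the length trend removed (-0.30). The count of genes called between groups, 1617 by edgeR, was 455 with the length and GC trend removed, 682 with the length trend alone, 0 when adjusted over 16064 genes and 38 to 1389 with 1 library left out (546, 180, 38 and 156 without control replicates 1 to 4, 127 and 163 without propionate replicates 3 and 4). It was 1285 with TMM scaling (512 higher, 39.8%), where the authors' size factors gave 864 higher (53.4%). The count of genes that follow Col4a3 within groups was 0 by edgeR and 15 by DESeq2, whose adjustment ran over fewer genes. In edgeR it was 1 with the replicate block and 0 to 0 with 1 library left out. The median likeness of the 8 most alike genes was 0.761 without the 2 mice farthest in Col4a3 and 0.821 to 0.96 with 1 library left out. That of the 4 least alike genes was -0.773 with the length and GC trend removed and -0.972 to -0.908 with 1 library left out. After removal of the length and GC trend, which took the median log2 fold change of all genes from 0.16 to 0.03, the likeness of Sgms1 was -0.489 and of Tmem87b -0.0764, and with length alone that of Setd5 was -0.145 and of Rps7 -0.0943. The median log2 fold change of the 10 listed genes, -0.23, was -0.0454 with the length and GC trend removed, -0.0578 with length alone and -0.26 to -0.20 with 1 library left out. The log2 fold change of Itgav was 0.10 and of Sec23b 0.0819 with the length and GC trend removed, and that of Itgav 0.0132 with length alone. The trends were fitted on genes selected for a difference, and the cause of these shifts was not tested. The labels do not tie same-numbered mice to each other. Same-numbered libraries deviated together in 3 of 4 pairs (r = 0.22, 0.30 and 0.25) and not in replicate 3 (r = -0.05). Differently numbered pairs ran from r = -0.40 (control 2 with propionate 1) to 0.32 (control 1 with propionate 3). A tie by replicate number was not tested, and 4 same-numbered pairs are too few to decide it, so the block is an alternative only. With the replicate block the likeness was 0.665 for Col18a1, -0.972 for Arhgap24, -0.512 for Itga6, 0.623 for Plod2 and -0.888 for Sec23b, and that of the 12 most and least alike genes kept its sign. With the replicate block the log2 fold change of Col4a3 was -0.52 and the count of genes called between groups 1562.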

Other observations

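The 15 genes with a DESeq2 slope on Col4a3 within groups, named after their values were seen, split into 9 with a positive and 6 with a negative slope. Osbpl8 (slope 0.95 ± 0.20, SE, DESeq2 adjusted p = 0.00156) and Malat1, an abundant nuclear noncoding RNA (slope 1.73 ± 0.39, DESeq2 adjusted p = 0.00579), led the positive ones. Cpeb4, Leng8, Pnisr, Slc25a30, Tnrc6a, Xist and Zmiz1 were the others. Cox7a1, a subunit of cytochrome c oxidase (slope -1.30 ± 0.31, DESeq2 adjusted p = 0.00995), and the heat shock cochaperone Dnajb1 (slope -1.12 ± 0.29, DESeq2 adjusted p = 0.0238) led the negative ones. Esrra, Fkbp4, Pfkl and Scd1 were the others. By edgeR, whose adjustment ran over more genes, none of the 15 passed, and 284 genes had an unadjusted p under 0.05.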
